A study of Mus musculus with 6 samples.

Results

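The 10 genes described here encode enzymes of triglyceride synthesis and of its glycerol 3-phosphate supply: *Gpd1*, *Gpam*, *Agpat2*, *Agpat3*, *Lpin1*, *Lpin2*, *Lpin3*, *Mogat1*, *Dgat1* and *Dgat2*. They were chosen by gene name as a list of glycerolipid synthesis genes, out of 21528 genes listed in at least 1 of 6 liver RNA-Seq libraries. All 10 were found in the libraries. The libraries came from mice labelled C57BL/6 (a C57Bl/6J background in the study's methods) that were 5 months old and had eaten a high-fat diet (HFD, 60% fat) for 3 months. Of these, 3 were wild type (WT) and 3 carried the TRIM24 C52/55A knockin (KI), in which 2 cysteines of the RING domain of TRIM24, the domain that gives this protein its E3 ubiquitin ligase activity, are replaced by alanine. The study bred homozygous knockin mice and their WT littermates from heterozygous parents, the substitution was made by CRISPR/Cas9 in the endogenous gene, and it is therefore present in every tissue and not in hepatocytes alone. Both groups ate the HFD, and no library from another diet enters the comparison. The labels give no sex. The study describes the HFD-fed mice of its liver triglyceride, Q-PCR and protein assays as 5-month-old males. Its caption for the RNA-Seq result names no sex. The question put to these values was how the RNA of each enzyme of triglyceride synthesis differed between the KI and the WT liver.

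The liver makes triglyceride mainly by the glycerol 3-phosphate pathway. GPD1 reduces dihydroxyacetone phosphate to glycerol 3-phosphate, a glycerol-3-phosphate acyltransferase (GPAT) adds the first fatty acyl chain, an acylglycerol-phosphate acyltransferase (AGPAT) adds the next to give phosphatidate, a lipin removes the phosphate to give diacylglycerol, and a diacylglycerol acyltransferase (DGAT) adds the last chain. MOGAT1 enters by another route and acylates monoacylglycerol. Triglyceride so made is stored in lipid droplets or secreted in lipoproteins, and diacylglycerol is also the branch point to phosphatidylcholine and phosphatidylethanolamine.

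Stretches before the start of 3 of the genes are shown, as annotated by RefSeq on GRCm38.p6, from windows of 250 bases before to 50 bases after each start. RefSeq windows were found for 7 of the 10 genes, 11 windows in all, and *Dgat1*, *Dgat2* and *Gpd1* had none. *Mogat1* is shown because its mean level differed by the largest fold between the groups. *Lpin1* and a further, internal start of *Gpam* are shown because theirs were the only windows that held the letters AGGTCA on either strand. AGGTCA is the core element that PPARs and many other nuclear receptors bind. In the lines that follow, capitals mark AGGTCA. The stretches lie at chr1:78510810-78510990 (plus strand, *Mogat1*), chr12:16610967-16611216 (minus strand, *Lpin1*) and chr19:55099478-55099727 (minus strand, *Gpam*), and hold no annotated exon, the last of them lying between exons of the longer *Gpam* transcripts. The *Mogat1* stretch holds none of the motifs searched.
Mogat1: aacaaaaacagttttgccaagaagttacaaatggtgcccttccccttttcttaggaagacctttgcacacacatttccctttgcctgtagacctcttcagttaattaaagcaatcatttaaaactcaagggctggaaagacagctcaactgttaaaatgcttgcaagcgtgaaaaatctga
Lpin1: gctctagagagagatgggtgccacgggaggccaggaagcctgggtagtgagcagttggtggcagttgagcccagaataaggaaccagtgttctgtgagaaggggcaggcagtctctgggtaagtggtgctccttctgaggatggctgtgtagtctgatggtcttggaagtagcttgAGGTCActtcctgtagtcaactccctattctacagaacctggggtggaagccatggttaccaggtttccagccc
Gpam, internal start: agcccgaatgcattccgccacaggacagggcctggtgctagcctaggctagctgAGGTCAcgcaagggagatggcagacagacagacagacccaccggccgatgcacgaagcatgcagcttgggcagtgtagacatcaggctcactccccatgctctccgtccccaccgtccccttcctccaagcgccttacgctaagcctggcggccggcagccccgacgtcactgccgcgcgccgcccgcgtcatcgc

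AGGTCA stood at positions -74 to -69 in the *Lpin1* window and at -196 to -191 in the *Gpam* window, counted from the RefSeq start. It was present in 2 of the 11 windows, and in 16.3% of all 32851 windows of the same length. CACGTG, the E-box letters that factors of the USF and ChREBP kind bind, was in 2 of the 11, in *Lpin2* at -9 to -4 and in *Lpin3* at 22 to 27, against 7.15% of all windows. CCAAT was in 3 of the 11 against 37.4% of all windows, in *Gpam*, *Lpin2* and *Mogat1*. TATAAA, in 13.6% of all windows, and TCACNCCAC, a sterol regulatory element in 1.24% of them, were in none of the 11. Both strands were searched, and no 2 of these motifs overlapped in the windows shown. These matches describe letters and not binding.

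Values are FPKM, the fragments of a gene scaled to its transcript length and to how many fragments its library had mapped, deposited by the authors for each library on its own. The WT tables added up to 644619 to 648221 FPKM and the KI tables to 673244 to 676791 FPKM, sums that are not read depths. The steps between low values put the depths within 0.969 to 1.03 times that of WT replicate 1, and 1 fragment per kilobase of transcript was worth 0.0607 to 0.0632 FPKM. The test was run with limma on log2(FPKM + 1) of 12225 genes, those whose mean reached 0.5 FPKM, and adjusted p values are Benjamini-Hochberg values over these genes. A fold change on that scale understates the change of genes of low FPKM. All 10 triglyceride synthesis genes passed the filter. *Trim24* itself was at 5.54, 4.85 and 5.96 FPKM in the WT livers and 6.15, 4.31 and 8.46 FPKM in the KI livers, a log2 fold change of 0.14 (adjusted p = 0.713). The knockin changes codons, so this level does not check the labels.

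The samples had the RNA of liver. *Ttr*, *Apoa1*, *Tat* and *Cps1*, made by hepatocytes, summed to 12400 to 12800 FPKM in WT and 11800 to 14200 FPKM in KI (*Alb*, the fifth marker on the list, was not analysed here). KI replicate 2 stood apart from the other libraries in adipocyte markers: *Lep*, the gene of leptin, was at 3.98 FPKM and *Retn*, that of resistin, at 1.59 FPKM, and neither was listed in another library. *Adipoq*, the gene of adiponectin, was at 4.55 FPKM in KI replicate 2, 0.127 FPKM in WT replicate 3 and not listed elsewhere, and *Plin1*, a droplet coat protein of adipocytes, was at 3.32 FPKM there, 0.0263 FPKM in WT replicate 3 and not listed elsewhere. Of 10 adipocyte markers, 7 were highest in KI replicate 2. *Cfd*, the gene of adipsin, was not among these. Its levels were 4.17, 8.62 and 3.10 FPKM in WT and 0.112, 2.54 and 0.821 FPKM in KI (log2 fold change -1.61, adjusted p = 0.0617). *Adig* was highest in KI replicate 1, at 0.444 FPKM, and *Cidec* in WT replicate 1, at 25.2 FPKM. The 10 markers summed to 873 to 997 FPKM in WT and 497 to 1210 FPKM in KI, most of it from *Pck1*, which hepatocytes also express. Adipose tissue expresses several genes of triglyceride synthesis too, and the part of this signal in the results was not tested, so the fold changes of the 10 genes, the ratios and the sums below are also given without KI replicate 2. In whole liver, fewer cells of a type and less RNA per cell cannot be told apart. Several markers of other cell types also moved with genotype, and their part in the results was not tested. The 3 sinusoidal endothelial markers summed to 55.9 to 63.6 FPKM in WT and 49.7 to 55.5 FPKM in KI. Among them *Lyve1* fell by 1.26 on the log2 scale (adjusted p = 0.0281). The log2 fold changes of *Stab2* (-0.18, adjusted p = 0.39) and *Clec4g* (-0.04, adjusted p = 0.853) did not pass the test. In the hepatocyte list *Cps1* rose by 0.63 on the log2 scale (adjusted p = 0.0281), while the log2 fold changes of *Tat* (-0.59, adjusted p = 0.14), *Ttr* (-0.18, adjusted p = 0.318) and *Apoa1* (0.15, adjusted p = 0.548) did not pass the test. In the adipocyte list *Cidec*, which the fatty liver also expresses, fell by 2.36 (adjusted p = 0.0286). The exocrine pancreas list summed to 3.50 to 8.26 FPKM in WT and 10.8 to 16.1 FPKM in KI, nearly all from *Cela1*, which rose by 1.06 (adjusted p = 0.0469), while *Cpa1* was at most 0.206 FPKM. The small intestine list summed to 162 to 166 FPKM in WT and 58.6 to 86.0 FPKM in KI, nearly all from *Fabp2*, which fell by 1.21 (adjusted p = 0.00217), while *Vil1* was at most 0.279 FPKM. Of the 15 alternatives, *Fabp2* kept an adjusted p under 0.05 in 15, *Lyve1*, *Cps1* and *Cidec* in 9 each and *Cela1* in 7. Kupffer cell markers summed to 131 to 171 FPKM in WT and 115 to 148 FPKM in KI, stellate cell markers to 98.2 to 107 and 97.7 to 123 FPKM, cholangiocyte markers to 2.60 to 4.65 and 2.64 to 5.10 FPKM, and skeletal muscle markers to 0.089 to 0.780 and 0.279 to 0.851 FPKM.

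Of the 10 triglyceride synthesis genes, *Gpd1*, *Agpat3* and *Mogat1* fell in the KI liver (adjusted p under 0.05) and none rose. By comparison, 6.09% of all genes tested fell and 1.64% rose, 744 and 200 genes. That balance depends on the scaling between libraries, with 411 lower and 249 higher after median-of-ratios scaling 379 lower and 255 higher after quantile normalization, and 1358 lower and 197 higher with TPM scaling. In 9 of the 10 genes the log2 fold change was below 0, and in 1, *Lpin3*, it was above, while 8005 of all 12225 genes tested were below 0. An unadjusted p under 0.05 with a lower level in KI was reached by 7 of the 10, against 19.0% of all genes tested. Every KI library was below every WT library for 6 of the 10, *Gpd1*, *Agpat2*, *Agpat3*, *Lpin2*, *Mogat1* and *Dgat2*, against 22.5% of all genes tested. The median log2 fold change of the 10 genes was -0.45, against -0.08 over all genes tested. After quantile normalization the same medians were -0.29 and 0.01, and after median-of-ratios scaling -0.35 and 0.01. Leaving out KI replicate 2 gave -0.43 for the 10 genes and -0.10 for all genes.

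**Figure D1:**
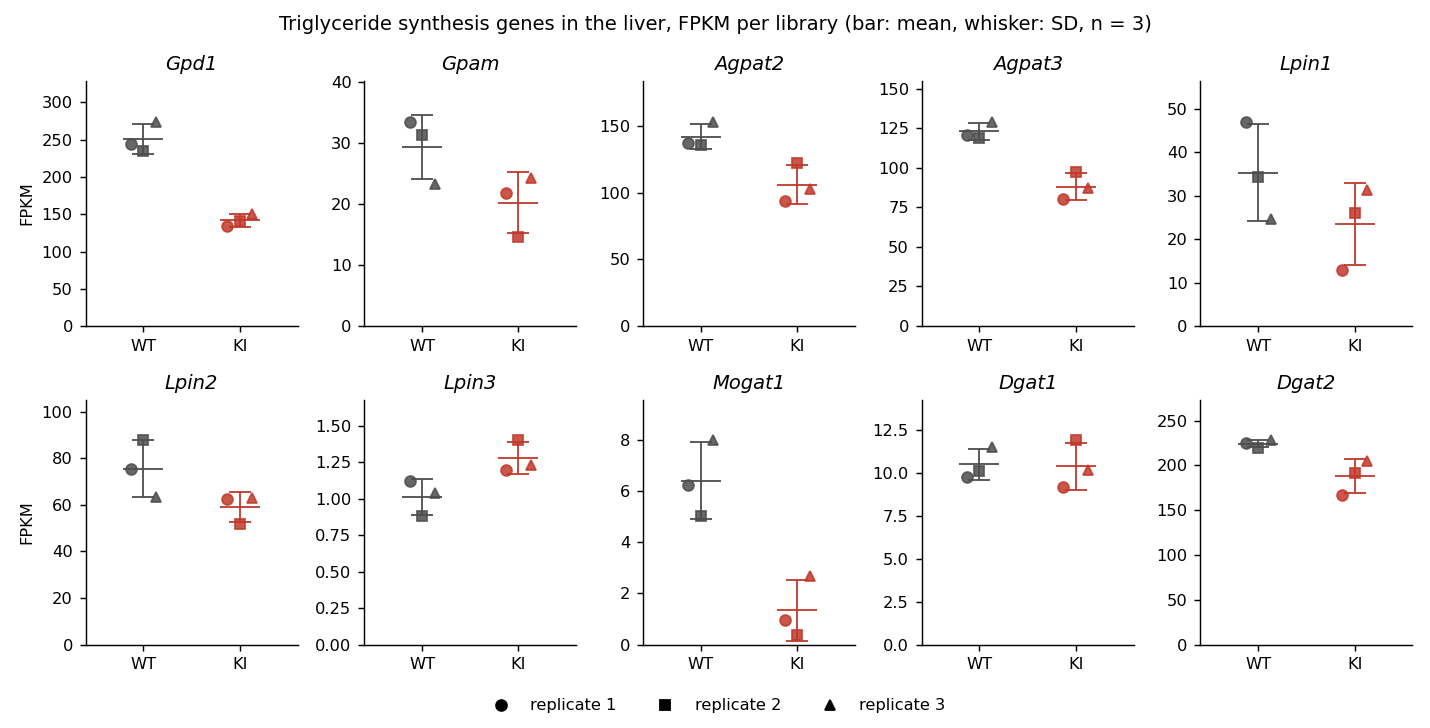
FPKM (vertical axes, each from 0) of the 10 triglyceride synthesis genes in the 3 WT and 3 KI livers, with 1 point per library, the mean as a bar and the SD as a whisker. The KI points of Gpd1, Agpat2, Agpat3, Lpin2, Mogat1 and Dgat2 all lie below the WT points, those of Lpin3 lie above, and the groups overlap for Gpam, Lpin1 and Dgat1.

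FPKM are scaled to length, so the levels of the genes can be set side by side. In WT livers the means ran from *Gpd1* (251 FPKM) through *Dgat2* (224), *Agpat2* (142), *Agpat3* (123), *Lpin2* (75.6), *Lpin1* (35.3), *Gpam* (29.3), *Dgat1* (10.5) and *Mogat1* (6.40) to *Lpin3* (1.01). Only *Lpin1* and *Gpam*, neighbours in this order, had WT ranges that overlapped. In KI livers *Dgat2* (188 FPKM) stood above *Gpd1* (142 FPKM), with ranges of 167 to 205 and 134 to 151 FPKM that did not overlap, and the order of the other means was as in WT. The KI ranges overlapped for *Agpat2* and *Agpat3*, for *Lpin1* and *Gpam*, and for *Mogat1* and *Lpin3*, whose KI means were 1.33 and 1.28 FPKM. *Lpin1* varied most among the WT animals relative to its mean, from 24.6 to 47.0 FPKM, and *Dgat2* least, from 220 to 228 FPKM. Within WT, *Lpin1* and *Gpam* shared an order, highest in replicate 1 and lowest in replicate 3.

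*Gpd1* encodes the cytosolic glycerol-3-phosphate dehydrogenase, which supplies the glycerol backbone (chr15:99717515-99725005 in GENCODE M21, plus strand). It was at 244, 235 and 274 FPKM in WT replicates 1 to 3 and at 134, 141 and 151 FPKM in KI replicates 1 to 3. The lowest WT library was far above the highest KI library, and the spread within each group was small next to the gap. The mean fell 1.77-fold, from 251 ± 20.5 to 142 ± 8.70 FPKM (SD, n = 3 per group). The fitted log2 fold change was -0.82, with a standard error of 0.09 and an adjusted p of 0.00223. *Gpd1* kept an adjusted p under 0.05 in each of 15 alternative analyses, from 0.00153 to 0.0153, with log2 fold changes of -0.88 to -0.64. It was -0.81 without KI replicate 2 (adjusted p = 0.00632).

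*Gpam* encodes GPAT1, the mitochondrial acyltransferase of the first acylation step (chr19:55067268-55127238, minus strand). Its level was 33.4, 31.2 and 23.3 FPKM in the WT livers and 21.7, 14.6 and 24.2 FPKM in the KI livers. The groups overlapped, since WT replicate 3 was below KI replicate 3. The log2 fold change was -0.53, with a 95% interval of -0.98 to -0.09, and it did not pass the test (standard error 0.19, adjusted p = 0.141). KI replicate 2 had the lowest level of all, and without it the log2 fold change was -0.33 (adjusted p = 0.205).

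AGPAT2 and AGPAT3 acylate lysophosphatidate, and loss of AGPAT2 in people causes a congenital lipodystrophy. *Agpat3* (chr10:78269178-78352489, minus strand) was at 121, 119 and 129 FPKM in WT and 80.1, 97.2 and 87.2 FPKM in KI. No KI library reached the lowest WT library. It fell 1.40-fold, or by 0.48 on the log2 scale, with a standard error of 0.09 (adjusted p = 0.0180). The adjusted p passed 0.05 when any WT library or KI replicate 1 was left out, with little change in the fold. Without WT replicates 1, 2 and 3 it was 0.0646, 0.0521 and 0.0747 at log2 fold changes of -0.49, -0.50 and -0.45, and without KI replicate 1 it was 0.0657 at -0.41. With no filter it was 0.0514 at -0.48, and after quantile normalization 0.0540 at -0.32. Leaving out KI replicate 2 gave -0.55 (adjusted p = 0.0104). *Agpat2* (chr2:26593057-26604417, minus strand) was at 137, 136 and 153 FPKM in WT and 93.8, 122 and 103 FPKM in KI. Its groups did not overlap either, with KI replicate 2 the nearest to WT. The log2 fold change of -0.42 (95% interval -0.67 to -0.17) had an adjusted p of 0.0535, just outside the threshold. Without KI replicate 2, the library with the adipocyte markers, it was -0.52 (adjusted p = 0.0159). All 6 libraries together gave -0.47 with array weights (adjusted p = 0.0194) and -0.48 with TPM scaling (adjusted p = 0.0252). It was -0.26 after quantile normalization (adjusted p = 0.188), -0.33 without KI replicate 1 (0.168) and -0.36 without WT replicate 3 (0.183).

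The lipins are phosphatidate phosphatases, and lipin 1 also acts in the nucleus as a coactivator of PPARα. *Lpin1* (chr12:16535669-16610966, minus strand) was at 47.0, 34.4 and 24.6 FPKM in WT and 12.9, 26.1 and 31.4 FPKM in KI. The groups overlapped widely, with 2 KI libraries above the lowest WT library. Its log2 fold change of -0.61 had a 95% interval of -1.36 to 0.14 (adjusted p = 0.310), an interval that spans 0 and is the widest among the lipins. The value was -0.39 without WT replicate 1, -0.25 without KI replicate 1 and -0.73 without KI replicate 2. *Lpin2*, the most abundant lipin here (chr17:71182560-71249817, plus strand), was at 75.5, 87.7 and 63.5 FPKM in WT and 62.4, 51.9 and 63.0 FPKM in KI. The KI libraries lay below the WT libraries, by a margin of under 1 FPKM between WT replicate 3 and KI replicate 3. The log2 fold change was -0.34 (95% interval -0.64 to -0.05, adjusted p = 0.153), -0.25 without KI replicate 2 and -0.20 after quantile normalization. *Lpin3* (chr2:160880670-160906002, plus strand) was at 1.12, 0.880 and 1.04 FPKM in WT and 1.20, 1.40 and 1.23 FPKM in KI. It was the only one of the 10 genes with every KI library above every WT library, at a low level. Its log2 fold change of 0.18 (95% interval -0.06 to 0.42) did not pass the test (adjusted p = 0.355), and it was 0.14 without KI replicate 2.

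*Mogat1* encodes a monoacylglycerol acyltransferase that is scarce in the lean liver of adult mice and rises in fatty liver (chr1:78510991-78538173, plus strand). It was at 6.21, 5.02 and 7.97 FPKM in WT and 0.969, 0.366 and 2.66 FPKM in KI. The highest KI library was well below the lowest WT library, and the KI libraries differed among themselves by several fold. These levels correspond to an estimated 125, 102 and 158 fragments in WT and 19, 7 and 52 in KI, taken with the longest annotated transcript of 1228 bases. The mean fell 4.80-fold, from 6.40 ± 1.49 to 1.33 ± 1.19 FPKM (SD, n = 3 per group), the largest fold among the 10 genes. The log2 fold change was -1.77, with a standard error of 0.32 (adjusted p = 0.0180), and with a pseudocount of 0.1 in place of 1 it was -2.52 (adjusted p = 0.0322). The call was lost with little change in the fold without WT replicate 1 (adjusted p = 0.0617 at -1.78), WT replicate 3 (0.0740 at -1.62) or KI replicate 1 (0.0762 at -1.71), and with no filter (0.0727 at -1.77). Without KI replicate 2 the log2 fold change was -1.44 (adjusted p = 0.0240), and without KI replicate 3, the highest of the KI libraries, -2.16 (adjusted p = 0.00183).

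DGAT1 and DGAT2 are unrelated in sequence and share the last step, in which DGAT2 is best known for using newly made fatty acids and DGAT1 preformed ones. *Dgat2* (chr7:99153658-99182719, minus strand) was at 225, 220 and 228 FPKM in WT and 167, 192 and 205 FPKM in KI. All KI livers were below the tightly grouped WT livers, and the KI livers were more spread. The log2 fold change of -0.26 (95% interval -0.46 to -0.05) did not pass the test (adjusted p = 0.125), and only TPM scaling brought it under the threshold (adjusted p = 0.0491), while median-of-ratios scaling gave -0.16 (adjusted p = 0.328) and quantile normalization -0.10 (adjusted p = 0.555). It was -0.27 without KI replicate 2 (adjusted p = 0.121). *Dgat1* (chr15:76502015-76511953, minus strand) was at 9.77, 10.1 and 11.5 FPKM in WT and 9.17, 11.9 and 10.2 FPKM in KI. The groups interleaved. The log2 fold change was -0.01, with a 95% interval of -0.27 to 0.25 (adjusted p = 0.972). Its sign turned in 5 of the 15 alternatives, and without KI replicate 2 it was -0.10.

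**Figure D2:**
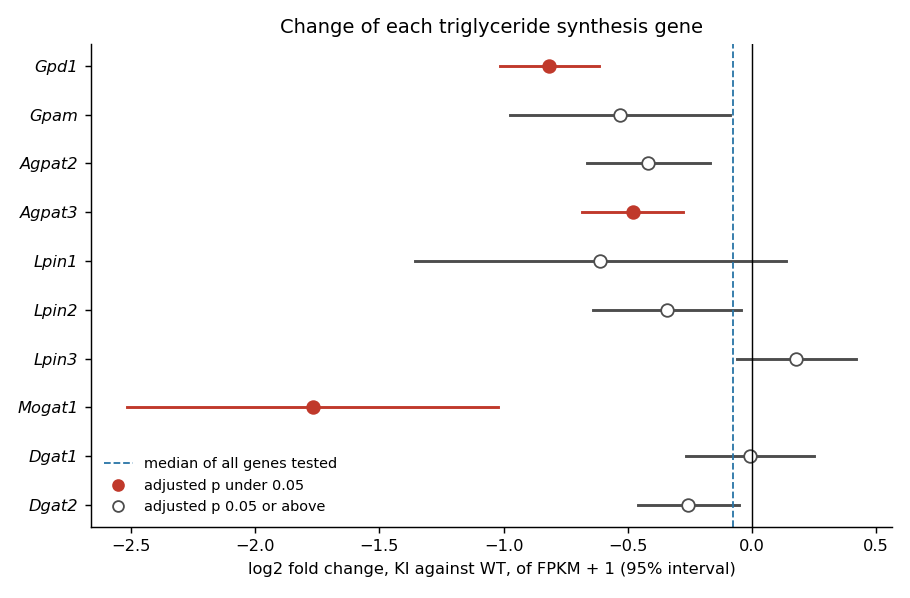
Log2 fold change of KI against WT on the FPKM + 1 scale (horizontal axis) for each of the 10 genes, with the 95% interval as a line, filled red where the adjusted p was under 0.05, and a dashed line at the median of all genes tested. Gpd1, Agpat3 and Mogat1 are filled, Mogat1 lies farthest left at -1.77, and the intervals of Lpin1, Lpin3 and Dgat1 cross 0.

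For 3 against 3 libraries an exact permutation test cannot give a two-sided p below 0.10. That smallest value, 0.10, was reached by the 7 genes whose groups did not overlap, *Lpin3* among them. The exact p was 0.20 for *Gpam*, 0.30 for *Lpin1* and 1.0 for *Dgat1*.

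The interval the files give for a gene was longer than the annotated gene for some of the 10. For *Lpin2* it ran over 621.6 kb, against 67.3 kb in GENCODE M21, and took in 7 other coding genes. For *Lpin3* it was 174.7 against 25.3 kb with 2 other coding genes, for *Agpat2* 56.5 against 11.4 kb with 3, and for *Mogat1* 41.1 against 27.2 kb with 1. Whether fragments of those genes entered these values cannot be read from the files, and the strand setting of the counting is not given in the sources used here. *Agpat3*, *Dgat1* and *Dgat2* had intervals of the annotated length, and no other coding gene lay in that of *Gpd1*. The intervals of *Gpam* (29.7 against 60.0 kb) and *Lpin1* (54.1 against 75.3 kb) were shorter than the annotated genes.

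Ratios within a library do not depend on the scaling between libraries, and 5 were compared by exact permutation test (smallest p 0.10, adjusted over the 5 ratios). *Dgat2* exceeded *Dgat1* by 23.0, 21.8 and 19.8 times in the WT livers and 18.3, 16.2 and 20.1 times in the KI livers. The ranges overlapped, and the log2 ratio was lower in KI by a mean difference of -0.25 (exact p = 0.20, adjusted p = 0.50). *Agpat2* stood to *Agpat3* at 1.13, 1.14 and 1.18 in WT and 1.17, 1.26 and 1.18 in KI, a difference of 0.06 on the log2 scale (exact p = 0.30, adjusted p = 0.50). In every library *Agpat2* was the more abundant of the pair. *Lpin3* over *Lpin2* was higher in every KI library (0.0193, 0.0271 and 0.0195) than in every WT library (0.0149, 0.0100 and 0.0164), a difference of 0.69 on the log2 scale (exact p = 0.10, adjusted p = 0.50). *Lpin1* over *Lpin2* was 0.622, 0.392 and 0.386 in WT and 0.207, 0.503 and 0.498 in KI, with KI replicate 1 far below the others. Its log2 difference was -0.29 (exact p = 0.80, adjusted p = 0.80), and it was 0.14 without KI replicate 1 and -0.06 without WT replicate 1. *Gpd1* over *Gpam* was 7.28, 7.52 and 11.7 in WT and 6.17, 9.64 and 6.24 in KI, and the groups overlapped (log2 difference -0.26, exact p = 0.50, adjusted p = 0.62). That difference was -0.04 without WT replicate 3, -0.15 without KI replicate 1 and -0.16 without KI replicate 3. Without KI replicate 2 the log2 differences were -0.17 for *Dgat2* over *Dgat1*, 0.03 for *Agpat2* over *Agpat3*, 0.53 for *Lpin3* over *Lpin2*, -0.50 for *Lpin1* over *Lpin2* and -0.48 for *Gpd1* over *Gpam*.

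The FPKM of the named isoenzymes of a step were summed within each library, a grouping chosen after the values were seen. *Lclat1*, at 16.9 FPKM in WT and 16.8 FPKM in KI, and the phospholipid phosphatases *Plpp1* to *Plpp3* were not in the sums, so the shares are of the genes named for each step. At the GPAT step, with *Gpam*, *Gpat2*, *Gpat3* and *Gpat4*, the sums were 79.9, 79.7 and 80.5 FPKM in WT and 57.3, 46.6 and 66.0 FPKM in KI, a ratio of means of 0.708. The WT sums were nearly equal although *Gpam* alone spread from 23.3 to 33.4 FPKM. *Gpat4*, which encodes the acyltransferase of the endoplasmic reticulum, held 57.7% of this sum in WT and 60.6% in KI, more than *Gpam* with 36.7% and 35.3%. At the AGPAT step, with *Agpat1* to *Agpat5*, the sums were 267, 264 and 291 FPKM in WT and 182, 228 and 198 FPKM in KI, a ratio of 0.740. *Agpat2* held 51.7% and 52.4% of it and *Agpat3* 44.9% and 43.5%. The 3 lipins summed to 124, 123 and 89.1 FPKM in WT and 76.5, 79.4 and 95.7 FPKM in KI. There the groups overlapped (ratio 0.749, exact p = 0.20), and *Lpin2* held 67.9% and 70.9%. *Mogat1* with *Mogat2* summed to 6.27, 5.05 and 8.10 FPKM in WT and 0.969, 0.429 and 2.70 FPKM in KI (ratio 0.211). *Dgat1* with *Dgat2* summed to 235, 230 and 239 FPKM in WT and 177, 204 and 216 FPKM in KI (ratio 0.846), and *Dgat2* held 95.5% and 94.7%. At each step other than that of the lipins, the KI sums lay below the WT sums (exact p = 0.10, the smallest possible). Without KI replicate 2 the ratios were 0.771 for the GPAT step, 0.694 for the AGPAT step, 0.769 for the lipins, 0.283 for the MOGAT genes and 0.835 for the DGAT genes. Without KI replicate 3 that of the MOGAT genes was 0.108.

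**Figure D3:**
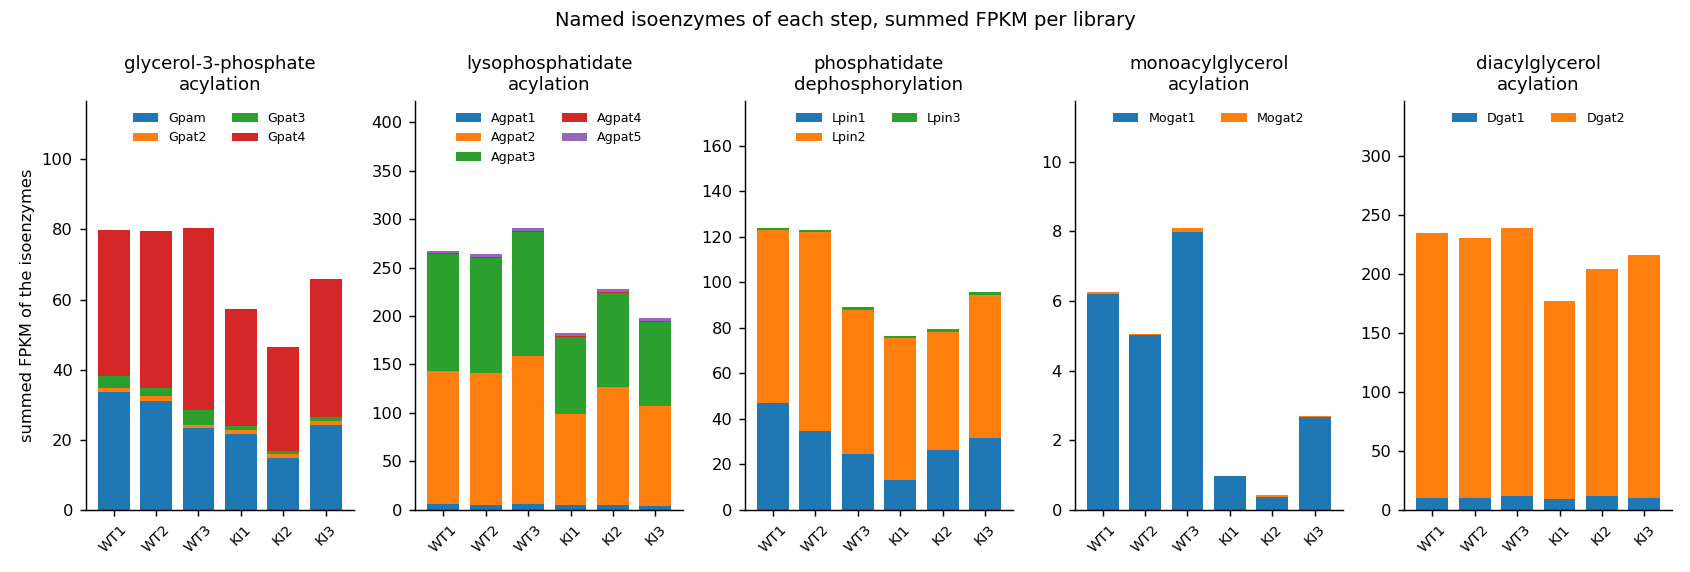
FPKM of the named isoenzymes of 5 steps of triglyceride synthesis, stacked per library (vertical axes from 0) for the 3 WT and 3 KI livers, with 1 colour per gene. The stacks of the KI livers are lower than those of every WT liver at all steps but phosphatidate dephosphorylation, where WT replicate 3 (89.1 FPKM) lies below KI replicate 3 (95.7 FPKM).

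Of 55 other genes of glycerolipid metabolism on 4 lists, 46 passed the filter. In 39 of these the log2 fold change was below 0 and in 7 above, beside 8005 of 12225 below 0 among all genes tested. The test was passed by 8, all lower in KI, beside the 6.09% of all genes that fell. An unadjusted p under 0.05 with a lower level was reached by 20 (19.0% of all genes tested), and in 28 every KI library was below every WT library (22.5% of all genes tested). The median log2 fold change of the 46 was -0.21, against -0.08 over all genes tested.

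Among 10 tested isoenzymes of the same or neighbouring steps, *Gpat3* and *Plpp3* fell and none rose, beside the 6.09% of all genes that fell. The median log2 fold change of this list, -0.07, was close to that of all genes tested (-0.08). *Gpat3*, listed under its older name *Agpat9*, encodes a GPAT that is prominent in adipose tissue. It was at 3.61, 2.15 and 4.24 FPKM in WT and 1.23, 1.01 and 1.15 FPKM in KI. The KI values were close together and all below the lowest WT value, and the gene fell by 1.0 on the log2 scale (adjusted p = 0.0174). *Plpp3*, a phospholipid phosphatase of the plasma membrane, fell less, from 53.6 ± 1.03 to 43.2 ± 0.635 FPKM (SD, n = 3 per group, log2 fold change -0.31, adjusted p = 0.0325). *Gpat4* was at 46.2 ± 5.26 FPKM in WT and 34.2 ± 4.93 FPKM in KI (SD, n = 3 per group), with a log2 fold change of -0.43 that did not pass the test (adjusted p = 0.0756). *Mogat2*, the intestinal monoacylglycerol acyltransferase, was at most 0.126 FPKM in any library and below the filter.

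Among 12 tested genes that supply glycerol 3-phosphate and acyl-CoA, *Gk*, *Acsl5* and *Dbi* fell and none rose, beside the same 6.09%, and the list had a median log2 fold change of -0.29. *Gk* encodes glycerol kinase, the other source of glycerol 3-phosphate, and was at 37.9, 35.2 and 39.5 FPKM in WT and 27.5, 21.9 and 28.0 FPKM in KI. Every KI liver was below the lowest WT liver (log2 fold change -0.53, adjusted p = 0.0244). *Acsl5*, a long-chain acyl-CoA synthetase, had a log2 fold change of -0.47 (adjusted p = 0.0480). *Dbi*, the acyl-CoA binding protein, was the most abundant gene of the list at 1360 ± 77.8 FPKM in WT and 1020 ± 52.4 FPKM in KI (SD, n = 3 per group, log2 fold change -0.41, adjusted p = 0.0226). *Slc27a2*, a very-long-chain acyl-CoA synthetase and fatty acid transporter, was at 464 ± 17.7 and 419 ± 25.8 FPKM (SD, n = 3 per group, adjusted p = 0.301).

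In the phospholipid branch, which draws on the same phosphatidate and diacylglycerol, *Chpt1* fell and the other 16 tested genes did not pass the test, a share near the 6.09% of all genes that fell. The median log2 fold change of this list was -0.25. *Chpt1* encodes the cholinephosphotransferase that turns diacylglycerol into phosphatidylcholine. It was at 121, 112 and 139 FPKM in WT and 56.6, 54.3 and 62.3 FPKM in KI. Every KI level was well below the lowest WT level, and the gene fell by 1.09 on the log2 scale, with a standard error of 0.10 (adjusted p = 0.00110). The 2 most abundant genes of this list were *Pcyt2*, at 378 ± 30.1 FPKM in WT and 307 ± 25.0 FPKM in KI (SD, n = 3 per group, adjusted p = 0.0903), and *Pemt*, at 337 ± 10.6 and 280 ± 3.65 FPKM (SD, n = 3 per group, adjusted p = 0.0513), which both serve phosphatidylethanolamine and its methylation.

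The last list held 7 genes, those of lipin activation and droplet budding together with *Tmem68*. Of these, *Fitm1* and *Fitm2* fell, beside the same 6.09%, and the list had a median log2 fold change of -0.15. The FIT proteins bind triglyceride and diacylglycerol and help droplets leave the endoplasmic reticulum. *Fitm1* was at 46.2, 45.1 and 56.4 FPKM in WT and 19.5, 19.0 and 28.1 FPKM in KI, a log2 fold change of -1.13 (adjusted p = 0.00662). The interval in the files for *Fitm1* ran over 17.0 kb against 1.3 kb in GENCODE M21 and took in 2 other coding genes, and those for *Chpt1* and *Acsl5* each took in 1. *Fitm2* was at 23.1, 20.4 and 24.4 FPKM in WT and 14.8, 13.5 and 15.0 FPKM in KI (log2 fold change -0.61, adjusted p = 0.00943). The groups overlapped for neither. *Bscl2*, the gene of seipin, was at 39.2 ± 1.28 FPKM in WT and 36.1 ± 1.33 FPKM in KI (SD, n = 3 per group, adjusted p = 0.391). *Chpt1*, *Fitm1* and *Fitm2* kept an adjusted p under 0.05 in each of the 15 alternatives, *Gpat3* in 11, *Dbi* in 9, *Gk* in 8, *Plpp3* in 6 and *Acsl5* in 5. Without KI replicate 2, 10 of the pathway genes were called in place of 8. The count was 3 without WT replicate 1 or KI replicate 1, and 4 with median-of-ratios scaling.

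**Figure D4:**
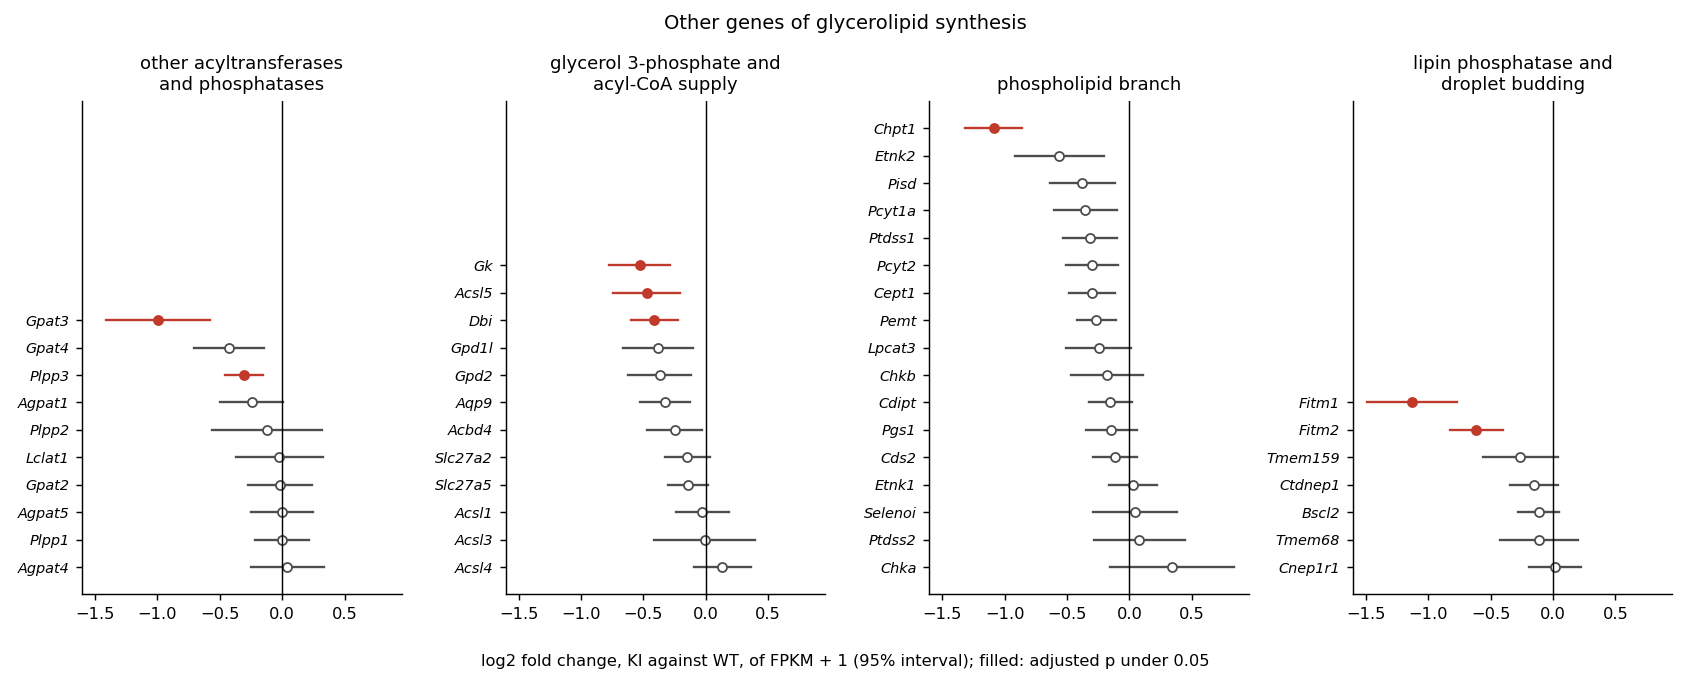
Log2 fold change of KI against WT on the FPKM + 1 scale (horizontal axes), with 95% intervals, for the 46 tested genes of the 4 lists, 1 list per panel and filled red where the adjusted p was under 0.05. The 8 filled points all lie left of 0, with Fitm1 at -1.13 and Chpt1 at -1.09 the farthest.

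**Figure D5:**
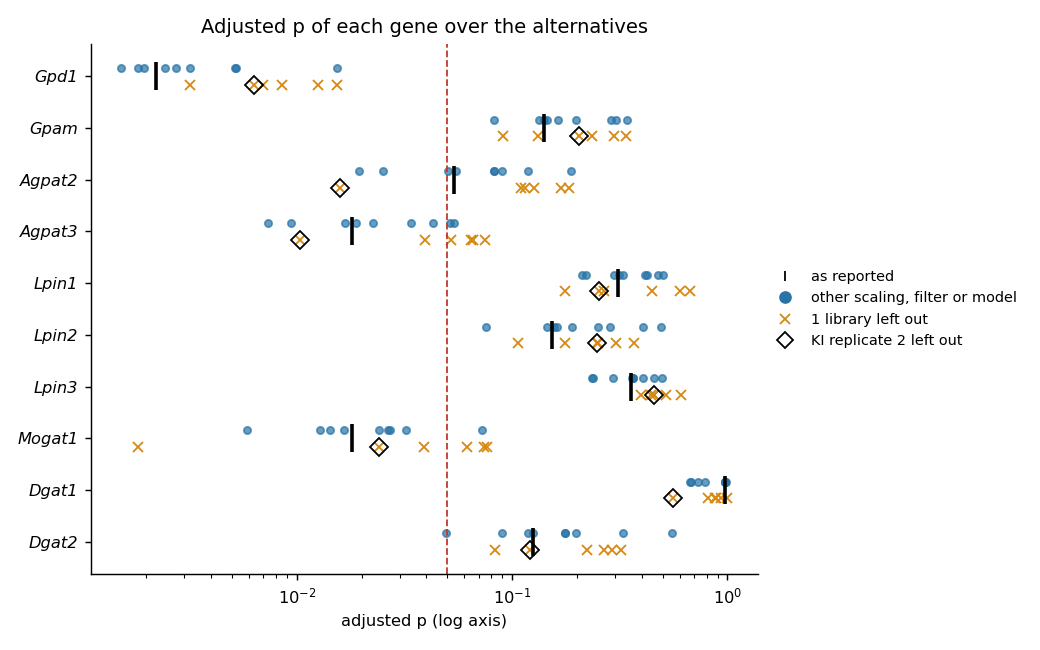
Adjusted p (horizontal axis, log scale) of each of the 10 genes as reported (bar), under 9 other scalings, filters and models (circles) and with 1 library left out (crosses, KI replicate 2 as a diamond), with the threshold of 0.05 dashed. Gpd1 lies left of the threshold throughout, Agpat3 and Mogat1 lie on both sides of it, and Gpam, Lpin1, Lpin2, Lpin3 and Dgat1 lie right of it throughout.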

How the data were processed

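Liver RNA-Seq libraries of 3 WT and 3 TRIM24 C52/55A mice were analysed. The values are FPKM, deposited by the authors in a table for each library that lists genes above 0, and a gene listed in some libraries was set to 0 in those that did not list it. Per the labels, the processing notes name bcl2fastq, Salmon 0.14.0, DESeq2 1.30.0 and the GRCm38 genome without saying what each was used for, and how FPKM was made from the reads is not given in the sources used here. Because FPKM are not counts, log2(FPKM + 1) of the 12225 genes whose mean reached 0.5 FPKM was tested between genotypes with limma 3.58.1 in R 4.3.3 (lmFit, eBayes with a mean-variance trend), two-sided, with Benjamini-Hochberg adjustment and a threshold of 0.05. Single genes and ratios had an exact permutation test. FPKM keep no total count, and the number of libraries limits the precision.

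The triglyceride synthesis genes, the lists of other genes and the named-gene rule were chosen with earlier results of these data known. Named besides the 10 genes were the pathway genes with an adjusted p under 0.05 (at most 5 per list), the 2 most abundant of each list, *Trim24* and cell type markers that stood apart. *Mogat2*, *Lclat1*, *Tmem68* and the smaller isoenzymes of the sums were named after their values were seen. So were, among the markers, *Pck1*, *Cfd*, *Adig*, *Lyve1*, *Stab2*, *Clec4g*, *Cps1*, *Cidec*, *Cela1*, *Cpa1*, *Fabp2* and *Vil1*. The labels make the libraries separate samples, and no 2 libraries held the same values in more than 1 gene. The limma p values set the genotype difference against the spread between libraries of a group, estimated with the help of the other genes. Coordinates are of GENCODE M21 (GRCm38), and promoter sequences are from RefSeq (GRCm38.p6). Alternatives were a pseudocount of 0.1, no filter, a mean of at least 1 FPKM, TPM, median-of-ratios and quantile scaling, no variance trend, array weights, a replicate block and each library left out. The summed levels and their values with a library left out were added after the data were seen. Tables were made with Python 3.11.15, pandas 2.3.3, numpy 2.4.6 and scipy 1.17.1, and figures with matplotlib 3.10.9.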

Additional observations from a re-analysis of the deposited data

How the results depend on the processing

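Over 15 alternatives, 9 of the 10 genes kept the direction of their log2 fold change. The exception was *Dgat1*, whose log2 fold change of -0.01 became 0.0839 with median-of-ratios scaling and 0.0886 with quantile normalization, and lay between -0.10 and 0.0709 with 1 library left out. The number of the 10 genes called (3) was 1 with no filter, 5 with TPM scaling, which added *Agpat2* and *Dgat2*, and 1 to 4 with 1 library left out, the lowest without WT replicate 1, WT replicate 3 or KI replicate 1. Their median log2 fold change (-0.45) was -0.29 with quantile normalization and -0.47 to -0.36 with 1 library left out. The number of other pathway genes called (8) was 4 with no filter, 18 with TPM scaling, 4 with median-of-ratios scaling, 5 with quantile normalization, 13 with array weights and 3 to 10 with 1 library left out, the lowest without WT replicate 1 or KI replicate 1. The number of all genes called (944) was 347 with no filter, 1555 with TPM scaling and 294 to 1280 with 1 library left out, with 311, 475 and 300 without WT replicates 1, 2 and 3 and 294 without KI replicate 1. The *Lpin1* over *Lpin2* log2 difference (-0.29) was -0.50 to 0.14 with 1 library left out. A fit with the replicate block called 578 genes in all, 5 of the other pathway genes and the same number of the 10 genes, 3. Deviations from the group means correlated across genes at -0.12, -0.10 and 0.00 between same-numbered libraries of the 2 genotypes. Between differently numbered libraries the correlations were -0.05 to 0.14. With 3 libraries per group these values cannot decide whether the numbers pair the animals. Causes of these shifts were not tested. With 1 library left out fewer samples stand in the fit. The difference of *Lpin1* was close to its spread within each group, *Dgat1* differed by less than its spread, and *Mogat1* rests on an estimated 7 to 52 fragments in the KI libraries.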
